A study of Mus musculus with 18 samples.

Results

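The 45 genes described here belong to the interferon response and to MHC class I antigen presentation. They were selected by name from a mouse liver RNA-seq table of 15572 genes, of which 14151 were abundant enough to be tested, and all 45 were among the genes tested. The selection holds 18 genes of the interferon-gamma type (guanylate-binding proteins, immunity-related GTPases, MHC class I genes and their regulator Nlrc5). A further 17 genes are of the type I interferon type (Ifit, Oas, Isg15 and similar antiviral genes, with the feedback gene Usp18). The other 10, called shared below, are the receptor genes Ifngr1 and Ifngr2, transcription factors, Socs1 and 2 chemokines. Not all of these serve both types, since Ifngr1 and Ifngr2 encode receptors of interferon gamma only.

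Type I interferons and interferon gamma bind different receptors, and both signal through JAK kinases to STAT factors. Type I signalling ends mainly in a complex that includes STAT2 and IRF9 and binds the interferon-stimulated response element (ISRE), while interferon gamma acts through the gamma-activated site (GAS) and through IRF1. In liver, hepatocytes, Kupffer cells, endothelial cells and lymphocytes can all respond, and resident and infiltrating immune cells carry high levels of MHC and GBP genes.

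The study compared refed WT C57BL/6J mice with JMJD1C-LKO littermates, in which a floxed Jmjd1c gene is deleted by a Cre driven from the albumin promoter, so that deletion is aimed at hepatocytes and the other cells of the liver keep the gene. RNA-seq was made from refed liver of both genotypes, with 2 libraries a group, each from pooled RNA. ATAC-seq covered 3 groups (fasted WT, refed WT and refed JMJD1C-LKO) and H3K9me2 ChIP-seq the 2 WT groups, with 2 livers a group and each liver processed alone. The labels describe all mice as kept on chow for 6 to 8 weeks and as fasted overnight and then refed a high carbohydrate diet for 6 h, and fasted and refed samples were told apart by the letters in their titles. The study's methods give a longer refeeding, on a fat-free diet, than the labels do, and which applies to these samples is not given in the sources used here.

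The RNA-seq libraries held between 51265128 and 54400509 estimated counts. Jmjd1c itself had CPM (counts per 1e6 counts, TMM-normalized) of 21.99 and 22.78 in WT and 20.04 and 20.49 in the libraries labelled JMJD1C-LKO, a log2 fold change of -0.14 ± 0.084 (SE, n = 2 per group) with an adjusted p of 0.23 by edgeR's quasi-likelihood test. The gene-level count does not separate the deleted part of the gene from the rest, and this check therefore did not show the deletion, so the libraries are called LKO-labelled below and every direction rests on those labels. Hepatocyte markers were abundant in all 4 libraries, with summed CPM of 112600 and 110500 in WT against 111700 and 99870 in the LKO-labelled libraries. Of 6 such markers 1 rose (Cps1) and 0 fell. Red blood cell markers rose for 1 of 5 (summed CPM 1059 and 587 in WT against 927 and 917). Of 11 Kupffer cell and macrophage markers, 11 rose in the LKO-labelled libraries, with summed CPM of 344 and 358 in WT against 679 and 974, and none of them was at 0 in any library. T and NK cell markers rose for 9 of 14 (summed CPM 8.37 and 7.67 against 19.6 and 27.3), endothelial markers for 4 of 6 (89.3 and 87.8 against 119 and 156), dendritic cell markers for 3 of 6 (5.93 and 6.63 against 10.3 and 13.7) and monocyte and neutrophil markers for 2 of 5 tested (1.54 and 1.42 against 3.56 and 4.66), while 0 of 5 B cell markers passed the edgeR test (3 at an unadjusted p under 0.05, and 0 in DESeq2). The monocyte and neutrophil markers that rose were Ly6c2 and Ccr2, while S100a8, S100a9 and Retnlg did not pass. Of 6 stellate cell and cholangiocyte markers 0 passed (4 at an unadjusted p under 0.05, and 0 in DESeq2), with a median log2 fold change of -0.21. The Kupffer cell count stayed at 11 with any library left out, whereas T and NK cell markers dropped to 4 without WT replicate 1 and 3 without WT replicate 2, endothelial markers to 2 without WT replicate 2, dendritic cell markers to 1 without LKO-labelled replicate 2, and monocyte and neutrophil markers to 0 without WT replicate 1 and to 1 without WT replicate 2 or LKO-labelled replicate 2. The part of these cells in the changes below was not tested, and in bulk liver more cells of a type and more RNA per cell cannot be told apart.

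Of the 45 genes, 25 rose and 2 fell in the LKO-labelled libraries at an adjusted p under 0.05, where 14.6% of all genes tested rose and 13.4% fell. The median log2 fold change was 0.36 over the 45 genes and 0.006 over all genes tested. The 45 genes and their classes were chosen with earlier results of these data known, so these contrasts are not independent of the data. Among interferon-gamma-type genes 13 of 18 rose and 1 fell (median 0.36), among type I genes 8 of 17 rose and 1 fell (median 0.44), and among the shared genes 4 of 10 rose (median 0.17). With the MHC class I genes set aside, 7 of 12 interferon-gamma-type genes rose and 1 fell (median 0.34). Whether these classes differ was not tested, and the counts depend on both WT libraries. Without WT replicate 1, 10 of the 45 rose and 1 fell, and without WT replicate 2, 13 rose and 0 fell, while in the same fits the number of all genes that rose went from 2066 to 789 and 660. Without LKO-labelled replicate 2, which had the higher Kupffer cell marker sum, 21 of the 45 rose and 2 fell. With only the most abundant transcript counted per gene, 17 rose and 1 fell, and the calls of Ifngr1, Irf7, Gbp7, Ifi47, Tap2, Ifit1, Ifit2, Oasl2 and Ifi35 were lost (adjusted p 0.057 to 0.26), beside the losses given gene by gene below.

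**Figure D1:**
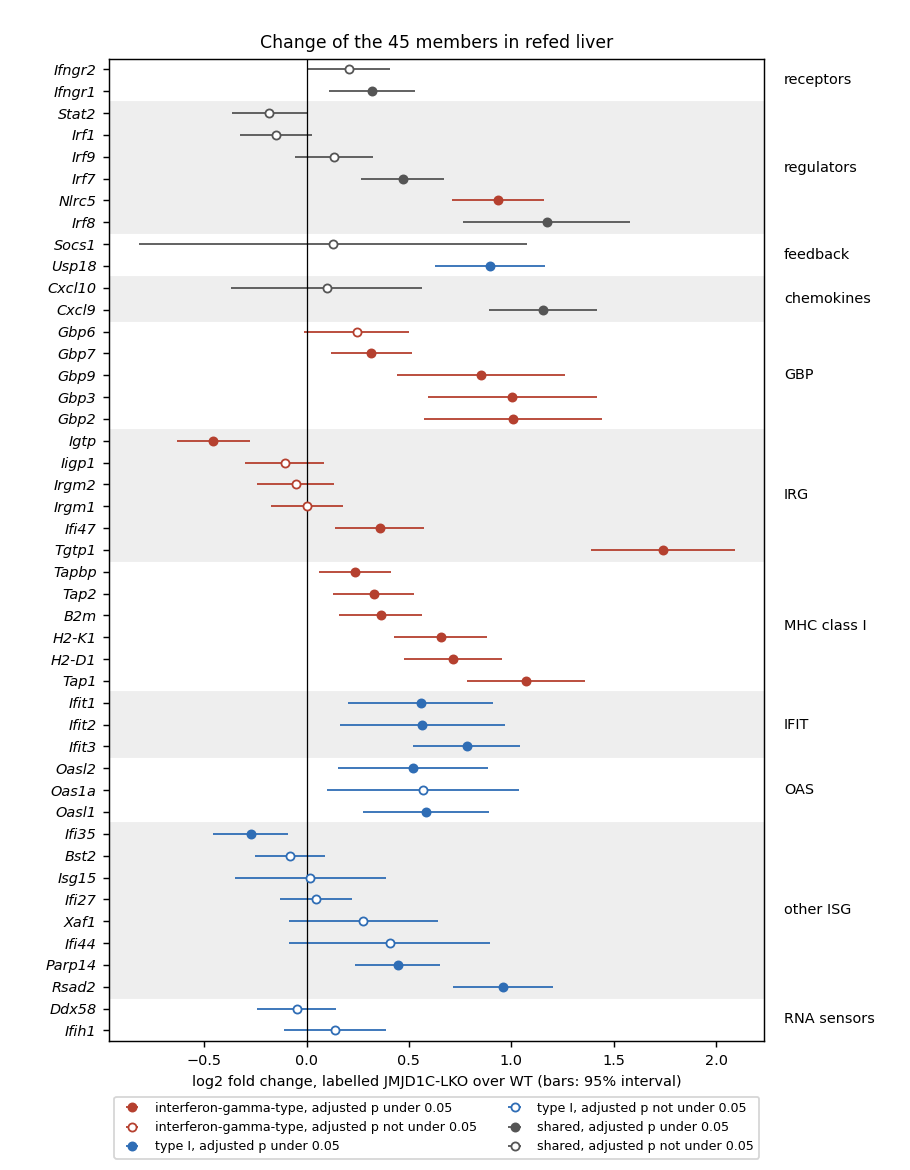
Log2 fold change of each of the 45 genes in LKO-labelled over WT refed liver (x axis; bars, 95% intervals from edgeR; n = 2 per group), ordered by role, with filled points for an adjusted p under 0.05. The 6 MHC class I genes lie between 0.24 and 1.07, all above 0, while the 6 immunity-related GTPases run from -0.45 to 1.74.

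Values per library are given below in the order WT replicate 1, WT replicate 2, LKO-labelled replicate 1 and LKO-labelled replicate 2. Levels of different genes were compared as TPM, which divides by transcript length. In WT liver B2m, the light chain of MHC class I molecules, had the highest mean TPM of the 45 (2865), followed by the heavy chains H2-K1 (1176) and H2-D1 (501). The immunity-related GTPase Iigp1 was the fourth at 199, and Socs1 was the lowest at 0.673.

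**Figure D2:**
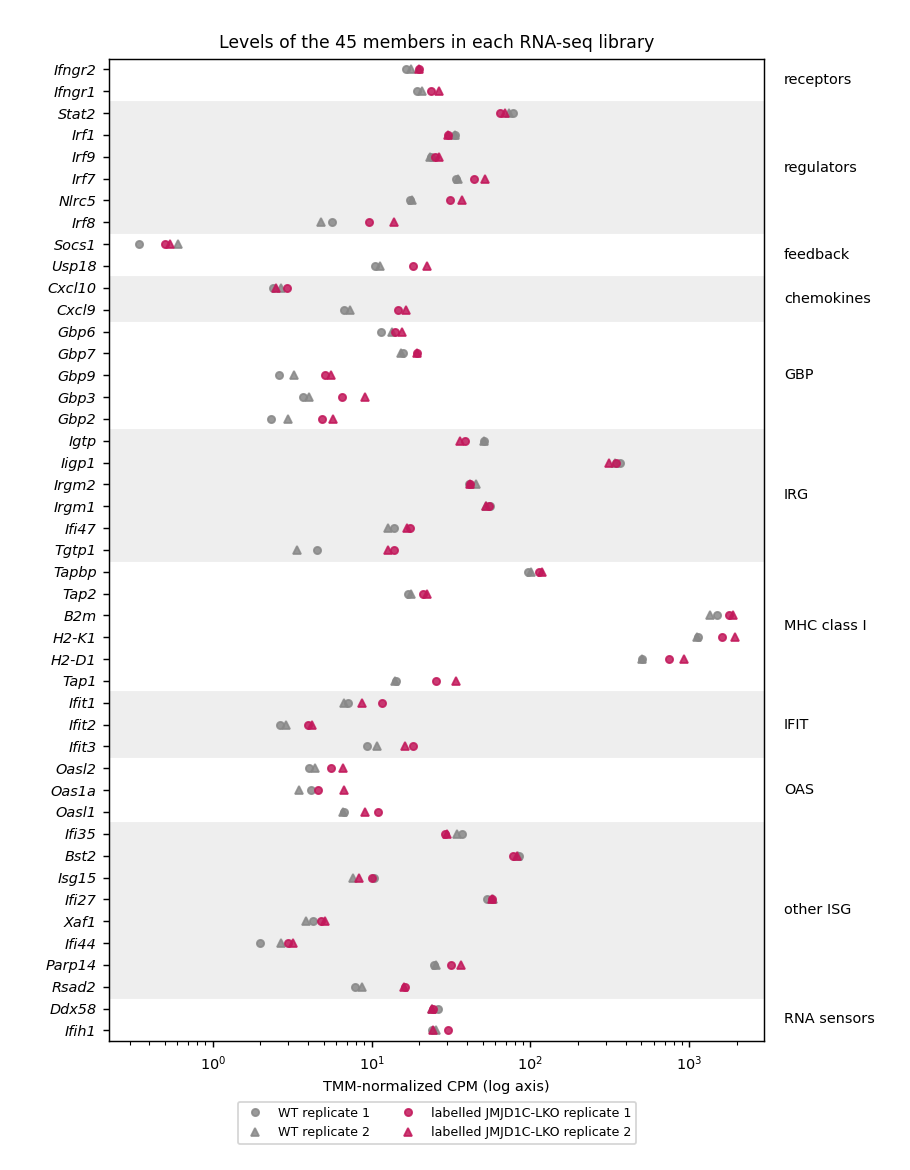
TMM-normalized CPM of each of the 45 genes in the 4 RNA-seq libraries (log axis), WT in grey and LKO-labelled in magenta, with circles for replicate 1 and triangles for replicate 2. The groups do not overlap for 31 genes that are higher and 5 that are lower in the LKO-labelled libraries, where 33.7% and 33.8% of all genes tested do so.

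MHC class I genes rose together. All 6 members, which encode the heavy and light chains, the peptide transporter TAP and the loading factor tapasin, passed the test. In all 6 both LKO-labelled libraries lay above both WT libraries, as they did for 33.7% of all genes tested. H2-K1 (chr17:33996012-34000347, GRCm38, minus strand) had CPM of 1137, 1110, 1611 and 1928, a log2 fold change of 0.65 ± 0.10 (SE) with an adjusted p of 0.0018. H2-D1 (chr17:35263094-35267497, plus strand) had CPM of 503, 507, 740 and 920 and rose by 0.72 ± 0.11 (adjusted p 0.0015). The WT libraries of both heavy chain genes were close together, whereas the LKO-labelled replicate 2 lay clearly above replicate 1. B2m had CPM of 1503, 1355, 1785 and 1889 and rose by 0.36 ± 0.090 (adjusted p 0.016). Tap1, a subunit of the transporter that carries peptides into the endoplasmic reticulum, had CPM of 14.3, 14.1, 25.6 and 34.1, the largest change of the 6 at 1.07 ± 0.13 (adjusted p 0.00052). Its partner Tap2 had CPM of 16.9, 17.7, 21.2 and 22.3 and rose by 0.33 ± 0.088 (adjusted p 0.022). Tapbp, the gene of tapasin, had CPM of 96.2, 101, 114 and 118, a log2 fold change of 0.24 ± 0.078 that only just passed (adjusted p 0.048). The 95% intervals of Tap1 (0.78 to 1.36) and Tap2 (0.13 to 0.53) do not overlap, though the difference between these subunits of a single transporter was not itself tested.

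In all 6 MHC class I genes the LKO-labelled replicate 2 was above replicate 1, with a median log2 ratio of 0.17, and the same held for 11 of 11 Kupffer cell and macrophage markers, with a median of 0.54. H2-K1, H2-D1 and Tap1 kept their calls in all 9 alternative fits. B2m did not pass without WT replicate 1 (0.44, adjusted p 0.068) or WT replicate 2 (0.29, 0.20), Tap2 without WT replicate 1 (0.30, 0.20), WT replicate 2 (0.36, 0.14) or LKO-labelled replicate 2 (0.29, 0.058), and Tapbp without the same libraries (0.20, 0.34; 0.27, 0.20; 0.21, 0.088). Tap2 and Tapbp also did not pass in DESeq2 (adjusted p 0.055 and 0.063), and Tapbp not without the low-count filter (0.058) or with the replicate number as a block (0.054), so that Tapbp kept its call in 3 of 9 alternative fits. Reads of H2-K1 and H2-D1 can be shared with other class I heavy chain genes, so the split between them is uncertain.

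Of the other genes of the class I pathway, 12 of 24 tested rose and 3 fell. The rise included class I heavy chain genes such as H2-Q10, a secreted class I protein made in liver, with CPM of 951, 898, 1324 and 1439 (0.58 ± 0.087), and H2-T23 with 128, 127, 182 and 198 (0.58 ± 0.081). Psmb9, an inducible subunit of the immunoproteasome that shares its promoter region with Tap1, had CPM of 7.14, 5.46, 13.6 and 16.2 and rose by 1.24 ± 0.15 (adjusted p 0.00059). The 3 that fell were Psme1, an activator of the proteasome (-0.35 ± 0.092), Calr, the chaperone calreticulin (-0.53 ± 0.11), and Pdia3, a disulfide isomerase of the loading complex (-0.70 ± 0.12). Calr had CPM of 1527, 1510, 1168 and 938, and Pdia3 had 553, 532, 376 and 292. Both of these chaperones serve the folding of many other proteins as well. H2-Q10 and H2-T23 were chosen after their values were seen.

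The guanylate-binding proteins (GBPs) are large GTPases that attack vacuoles holding intracellular pathogens. Of the 5 members, 4 rose, and all 5 had both LKO-labelled libraries above both WT libraries, as did 33.7% of all genes tested. Gbp2 had CPM of 2.33, 2.97, 4.91 and 5.76 and rose by 1.01 ± 0.19 (adjusted p 0.0050). Gbp3 had 3.73, 4.06, 6.55 and 9.06 and rose by 1.005 ± 0.18 (adjusted p 0.0040). Gbp9 had 2.62, 3.27, 5.09 and 5.54 and rose by 0.85 ± 0.18 (adjusted p 0.0084). These 3 genes lay lowest of the 5 in WT liver, while Gbp6 and Gbp7 were higher and had smaller fold changes. Gbp7 had CPM of 15.7, 15.4, 19.3 and 19.4 and rose by 0.32 ± 0.089 (adjusted p 0.026), and Gbp6 had 11.5, 13.4, 14.0 and 15.5, a log2 fold change of 0.25 ± 0.11 that did not pass (adjusted p 0.14). Without WT replicate 1 the calls of Gbp2 (0.84, adjusted p 0.077), Gbp3 (0.94, 0.056), Gbp7 (0.33, 0.16) and Gbp9 (0.70, 0.11) were lost, and without WT replicate 2 that of Gbp7 (0.30, 0.21), which also did not pass in DESeq2 (adjusted p 0.074).

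Of the 8 tested genes in the list of further GBPs and immunity-related GTPases, 6 rose and 2 fell. Gbp2b, a close copy of Gbp2, had CPM of 1.39, 0.729, 4.60 and 6.69 and rose by 2.42 ± 0.30 (adjusted p 0.00065), and Gbp10, a close copy of Gbp6, had 2.15, 1.42, 5.27 and 4.45 and rose by 1.45 ± 0.23. Since reads can be split wrongly between such copies, the sums were compared too. Gbp2 and Gbp2b together had CPM of 3.72, 3.70, 9.51 and 12.5, a log2 ratio of means of 1.57. Gbp6 and Gbp10 together had 13.7, 14.8, 19.2 and 20.0, a log2 ratio of 0.46, larger than the value of Gbp6 alone. Gbp11 fell (-0.64 ± 0.16), with CPM of 7.56, 7.90, 5.52 and 4.41.

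The immunity-related GTPases (IRGs) are the other interferon-gamma-induced GTPase family, and they did not move as a group. Of the 6 members 2 rose, 1 fell and 3 did not pass, with a median log2 fold change of -0.03. Tgtp1 (chr11:48985329-48992246, minus strand) had CPM of 4.52, 3.39, 13.8 and 12.6 and rose by 1.74 ± 0.16, or 3.34-fold, the largest change of the 45 genes (adjusted p 0.00014). Its neighbouring copy Tgtp2 had CPM of 2.59, 4.19, 7.46 and 11.6 and rose by 1.498 ± 0.26, and the sum of both copies was 7.10, 7.57, 21.3 and 24.3, so that the rise did not depend on how reads were divided between them. Igtp (chr11:58199556-58207592, plus strand), also called Irgm3, a regulator that keeps other IRGs inactive on host membranes, had CPM of 50.7, 51.3, 38.5 and 36.0 and fell by 0.45 on the log2 scale (SE 0.080, adjusted p 0.0033).

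The other regulatory IRGs did not pass. Irgm1 had CPM of 55.3, 52.4, 55.2 and 52.8, with a log2 fold change of 0.00 and a 95% interval from -0.17 to 0.18. Irgm2, which lies next to Igtp, had 41.0, 45.5, 41.7 and 41.6, with a log2 fold change of -0.05 and an interval from -0.24 to 0.13. Iigp1, an effector IRG and by TPM the highest of the family, had CPM of 364, 342, 343 and 313 with an interval from -0.30 to 0.08. Ifi47 had 13.8, 12.8, 17.4 and 16.7 and rose by 0.36 ± 0.098 (adjusted p 0.024). In all 6 IRG members the LKO-labelled replicate 2 was below replicate 1, by a median log2 ratio of -0.08. The ratio of WT replicate 2 over WT replicate 1 had the same median of -0.08. For Irgm2 the LKO-labelled ratio was only -0.0003. The sum of Tgtp1 and Tgtp2 was higher in LKO-labelled replicate 2 than in replicate 1 (CPM 24.25 against 21.25). The order seen for Tgtp1 alone therefore depends on how reads were divided. Tgtp1 passed in all 9 alternative fits. The call of Igtp was lost without WT replicate 2 (-0.45, adjusted p 0.057) and that of Ifi47 without WT replicate 1 (0.41, 0.11) or WT replicate 2 (0.30, 0.23) and in DESeq2 (adjusted p 0.055).

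The promoters of Tgtp1, Igtp and Irgm2 are shown because these 3 genes rose, fell and did not pass while carrying the same arrangement of interferon elements. RefSeq promoter windows of GRCm38.p6 run from 250 bases before to 50 bases after a transcript start and were found for 37 of the 45 genes. They were searched for the ISRE as GAAANNGAAA, on the other strand TTTCNNTTTC, and for the GAS as TTCNNNGAA, which reads the same on both strands, and overlapping matches were allowed. In the sequences below, written 5′ to 3′ along the gene's own strand, capitals mark the matches.
Tgtp1 promoter, chr11:48992197-48992496, minus strand: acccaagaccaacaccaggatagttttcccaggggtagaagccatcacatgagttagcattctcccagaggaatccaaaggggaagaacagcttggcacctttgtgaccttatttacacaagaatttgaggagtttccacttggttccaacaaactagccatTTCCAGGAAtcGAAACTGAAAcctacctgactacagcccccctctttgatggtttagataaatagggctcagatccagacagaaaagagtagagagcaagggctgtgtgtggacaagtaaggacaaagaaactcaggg
Igtp promoter, chr11:58199306-58199605, plus strand: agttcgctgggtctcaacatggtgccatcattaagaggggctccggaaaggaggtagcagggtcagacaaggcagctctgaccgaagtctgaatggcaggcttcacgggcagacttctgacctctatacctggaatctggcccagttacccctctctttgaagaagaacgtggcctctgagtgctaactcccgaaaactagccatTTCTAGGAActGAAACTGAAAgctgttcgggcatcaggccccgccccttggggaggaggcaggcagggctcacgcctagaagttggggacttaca
Irgm2 promoter, chr11:58214727-58215026, plus strand: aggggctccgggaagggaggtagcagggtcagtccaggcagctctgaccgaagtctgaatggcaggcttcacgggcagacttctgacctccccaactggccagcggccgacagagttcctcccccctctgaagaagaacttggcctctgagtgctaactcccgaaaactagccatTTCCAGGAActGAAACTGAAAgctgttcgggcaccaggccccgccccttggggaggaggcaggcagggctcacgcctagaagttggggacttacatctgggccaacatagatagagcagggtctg

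In each of these windows a GAS match is followed, after 2 bases, by an ISRE match, beginning 88 bases before the start in Tgtp1, 45 in Igtp and 75 in Irgm2. The ISRE match is the same 10-base word in all 3, and the 11 bases in front of the GAS match are identical as well. Of 32851 promoter windows, 5 hold a GAS match followed at this spacing by GAAANNGAAA, read on either strand (0.0152%). They belong to Tgtp1, Tgtp2, Igtp, Irgm2 and Gm12185. A GAS match followed by TTTCNNTTTC was not counted. In this order the log2 fold changes of these 5 genes were 1.74, 1.498, -0.45, -0.05 and 1.27, that of Gm12185 not passing the test (adjusted p 0.053). The genes were not tested against one another, and the part of this arrangement in their changes was not tested. This arrangement was noticed after the sequences had been seen, and Gm12185 and Irgm2 were added for it.

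Among the 37 genes with a window, 19 held an ISRE match in any of their windows (51.4%), against 3.99% of all 27025 genes with a window, and 10 held a GAS match (27.0%), against 9.55% of those genes. ISRE matches were found in 8 of 13 interferon-gamma-type genes, 8 of 14 type I genes and 3 of 10 shared genes, and GAS matches in 4 of 13, 4 of 14 and 2 of 10, and no difference between the classes was tested. Of the 23 genes with either match 10 rose and 2 fell, and of the 14 genes with a window and no match 10 rose and 0 fell. A match is a description of the letters and does not show binding. Further windows are given for genes that both passed the test and held a match, by smallest p within their class, and genes such as Tap1, H2-D1, H2-K1 and Cxcl9, which had a smaller p but no match, are not shown. Gbp3 holds 2 overlapping ISRE matches close to its start, Rsad2 a single match and Ifit3 and Ifit1 a pair of separate matches each, while Irf8 holds 2 GAS matches and no ISRE match.

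Gbp3 promoter, chr3:142559794-142560093, plus strand: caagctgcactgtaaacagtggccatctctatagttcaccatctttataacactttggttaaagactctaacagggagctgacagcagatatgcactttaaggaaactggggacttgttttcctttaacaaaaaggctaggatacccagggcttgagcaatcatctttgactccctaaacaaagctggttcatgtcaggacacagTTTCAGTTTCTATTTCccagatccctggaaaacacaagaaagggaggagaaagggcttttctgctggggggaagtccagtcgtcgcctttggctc
Rsad2 promoter, chr12:26456403-26456702, minus strand: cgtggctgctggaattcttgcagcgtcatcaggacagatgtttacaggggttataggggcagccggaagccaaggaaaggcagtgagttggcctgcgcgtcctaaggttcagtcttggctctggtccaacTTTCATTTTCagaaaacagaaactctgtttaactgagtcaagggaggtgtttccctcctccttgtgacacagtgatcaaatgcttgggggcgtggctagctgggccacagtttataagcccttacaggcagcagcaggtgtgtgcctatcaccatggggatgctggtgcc
Ifit3 promoter, chr19:34583279-34583578, plus strand: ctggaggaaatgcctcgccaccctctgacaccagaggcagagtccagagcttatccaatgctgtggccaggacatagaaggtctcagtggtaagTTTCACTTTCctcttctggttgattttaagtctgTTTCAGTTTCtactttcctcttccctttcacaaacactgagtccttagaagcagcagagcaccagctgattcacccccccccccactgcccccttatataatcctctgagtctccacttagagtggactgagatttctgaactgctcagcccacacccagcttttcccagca
Ifit1 promoter, chr19:34640639-34640938, plus strand: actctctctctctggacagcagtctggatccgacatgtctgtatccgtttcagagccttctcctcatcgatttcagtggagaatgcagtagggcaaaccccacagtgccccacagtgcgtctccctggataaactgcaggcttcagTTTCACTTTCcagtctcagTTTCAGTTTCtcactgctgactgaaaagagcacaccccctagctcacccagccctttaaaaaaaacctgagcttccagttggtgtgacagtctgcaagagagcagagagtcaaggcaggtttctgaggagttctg
Irf8 promoter, chr8:120736108-120736407, plus strand: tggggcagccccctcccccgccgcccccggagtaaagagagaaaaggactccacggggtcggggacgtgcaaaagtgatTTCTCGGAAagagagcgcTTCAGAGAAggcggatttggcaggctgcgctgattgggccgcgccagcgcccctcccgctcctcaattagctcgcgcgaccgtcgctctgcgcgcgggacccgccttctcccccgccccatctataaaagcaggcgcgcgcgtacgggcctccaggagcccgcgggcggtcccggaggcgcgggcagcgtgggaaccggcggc

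**Figure D3:**
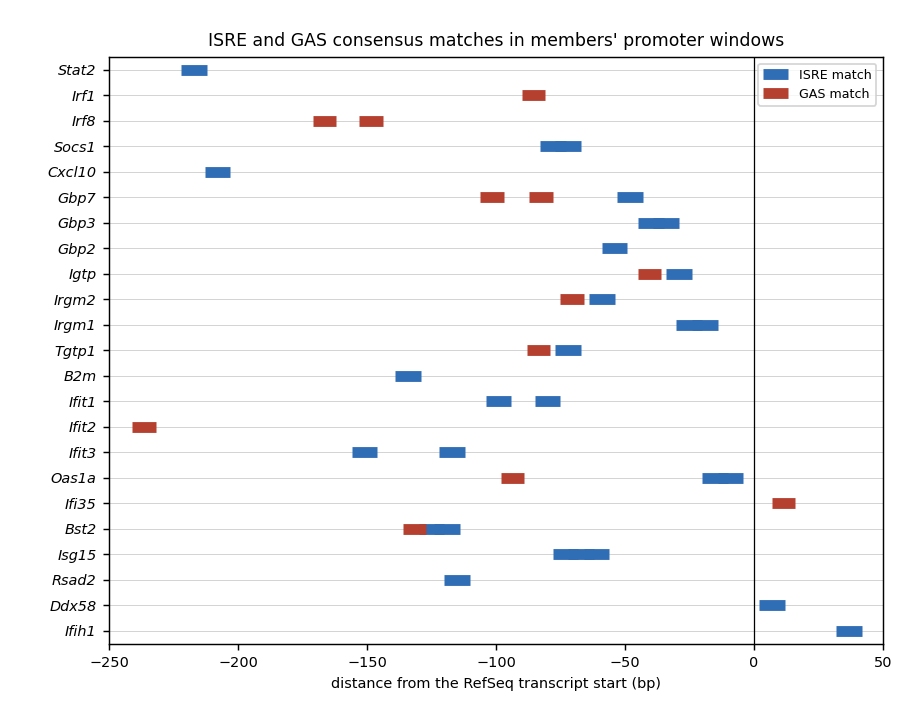
Position of ISRE (blue, 10 bases) and GAS (red, 9 bases) consensus matches in the promoter windows of the 23 genes that hold any, as distance in bp from the RefSeq transcript start. Tgtp1, Igtp and Irgm2 show the same pair side by side, at -88, -45 and -75 bp.

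The type I genes include effectors against viral RNA and the sensors that detect it. The IFIT genes, which bind viral RNA that lacks the host's cap modification, rose for all 3 members. Ifit3 had CPM of 9.30, 10.9, 18.3 and 16.4 and rose by 0.78 ± 0.12 (adjusted p 0.0015). Ifit1 had 7.08, 6.73, 11.7 and 8.66 and rose by 0.56 ± 0.16 (adjusted p 0.027), and Ifit2 had 2.66, 2.88, 3.99 and 4.21 and rose by 0.57 ± 0.18 (adjusted p 0.042). For Ifit1 and Ifit3 the LKO-labelled replicate 1 was the higher one, the reverse of the Kupffer cell and macrophage markers. Ifit3 with its copy Ifit3b summed to 12.06, 13.67, 22.97 and 21.23, a log2 ratio of means of 0.78. Ifit1 did not pass without WT replicate 1 (0.59, adjusted p 0.14), WT replicate 2 (0.52, 0.19) or LKO-labelled replicate 1 (0.32, 0.090), and Ifit2 without WT replicate 1 (0.51, 0.26), WT replicate 2 (0.62, 0.18) or LKO-labelled replicate 2 (0.53, 0.079) or in DESeq2 (adjusted p 0.090).

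The OAS family makes or resembles enzymes that make 2-5A, the activator of RNase L. Oasl1 had CPM of 6.73, 6.61, 10.9 and 9.09 and rose by 0.58 ± 0.14 (adjusted p 0.012), and Oasl2 had 4.05, 4.39, 5.53 and 6.57 and rose by 0.52 ± 0.16 (adjusted p 0.040). Oas1a had 4.14, 3.495, 4.58 and 6.74, with a log2 fold change of 0.57 ± 0.21 and an adjusted p of 0.070, so that the size was like that of the other members but the spread between the LKO-labelled libraries was wider. It passed without LKO-labelled replicate 1 (0.81, adjusted p 0.0035). Oasl1 did not pass without WT replicate 1 (0.59, 0.10) or WT replicate 2 (0.57, 0.12). Oasl2 did not pass without WT replicate 1 (0.46, 0.26), WT replicate 2 (0.57, 0.17) or LKO-labelled replicate 2 (0.39, 0.12), or in DESeq2 (adjusted p 0.068).

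Among the other interferon-stimulated genes, Rsad2, which encodes viperin, an enzyme that makes a chain terminator of viral RNA, had CPM of 7.83, 8.72, 16.2 and 16.0 and rose by 0.96 ± 0.11 (adjusted p 0.00038). The LKO-labelled libraries of Rsad2 were nearly equal, and it passed in all 9 alternative fits. Parp14, an ADP-ribosyltransferase, had 24.6, 25.5, 31.7 and 36.5 and rose by 0.44 ± 0.093 (adjusted p 0.0075). Isg15, the ubiquitin-like modifier often used as a marker of the type I response, had 10.42, 7.67, 10.02 and 8.33, with a log2 fold change of 0.02 and a 95% interval from -0.35 to 0.39. Ifi27 had 53.5, 57.7, 57.7 and 57.2 (interval -0.13 to 0.22), and Bst2, which encodes the virus tether tetherin, had 84.7, 83.8, 77.5 and 81.8 (interval -0.25 to 0.09). Ifi44 (0.41 ± 0.22) and Xaf1 (0.28 ± 0.16) did not pass. Ifi35 had 36.9, 34.5, 29.2 and 29.9 and fell by 0.27 on the log2 scale (SE 0.082, adjusted p 0.034). The call of Ifi35 was lost without WT replicate 1 (-0.23, adjusted p 0.27) or WT replicate 2 (-0.32, 0.13) and in DESeq2 (adjusted p 0.070), and that of Parp14 without WT replicate 1 (0.42, 0.092) or WT replicate 2 (0.47, 0.074).

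The cytoplasmic RNA sensors Ifih1 (MDA5) and Ddx58 (RIG-I) did not pass. Ifih1 had CPM of 23.9, 25.6, 30.3 and 24.3 (log2 fold change 0.14, interval -0.11 to 0.39) and passed only without LKO-labelled replicate 2 (0.29, adjusted p 0.049), and Ddx58 had 26.1, 23.9, 24.4 and 23.99 (interval -0.24 to 0.15). Usp18, the protease that removes ISG15 from proteins and damps the type I receptor, had 10.5, 11.4, 18.2 and 22.4 and rose by 0.89 ± 0.12 (adjusted p 0.00091). Within the type I class, Rsad2, Usp18 and the 3 Ifit genes rose, whereas the intervals of Isg15, Bst2 and Ifi27 spanned 0. Of 55 other type I response genes tested, 20 rose and 1 fell, with a median log2 fold change of 0.32, and 9 rose without WT replicate 1 and 6 without WT replicate 2. Ifi204, a DNA sensor, had CPM of 5.14, 6.03, 11.9 and 14.0 and rose by 1.21 ± 0.14, and Samhd1, a nucleotide hydrolase, had 15.9, 16.7, 27.5 and 34.6 and rose by 0.93 ± 0.11. Wars, a tRNA synthetase induced by interferon, was the gene that fell (-0.39 ± 0.089, CPM 23.5, 21.8, 17.0 and 17.4).

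The receptors of interferon gamma changed little. Ifngr1 had CPM of 19.4, 20.9, 23.7 and 26.6 and rose by 0.32 ± 0.094 (adjusted p 0.030), and Ifngr2 had 16.6, 17.8, 19.8 and 19.9 with a log2 fold change of 0.21 ± 0.090 (adjusted p 0.12). The call of Ifngr1 was lost without WT replicate 1 (0.27, 0.25), WT replicate 2 (0.37, 0.13) or LKO-labelled replicate 2 (0.24, 0.11) and in DESeq2 (adjusted p 0.061). Of 9 interferon genes looked for, only Ifng and Ifnk had counts, and both were scarce. No value was available for Ifnb1, Ifna1, Ifna2, Ifna4, Ifne, Ifnl2 and Ifnl3, so their levels are unknown. Ifng had CPM of 0, 0.0383, 0.101 and 0.0907 and was too low to test, and Ifnk, the only ligand gene tested, had 0.193, 0.134, 0.0810 and 0.1996.

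The regulators divided. Irf8, a factor of the macrophage and dendritic cell lineages, had CPM of 5.67, 4.79, 9.69 and 13.9 and rose by 1.17 ± 0.18 (adjusted p 0.0018). Nlrc5, the activator of MHC class I transcription, had 17.6, 18.02, 31.1 and 37.0 and rose by 0.93 ± 0.10 (adjusted p 0.00031). Irf7, the factor that amplifies type I interferon production, had 34.2, 35.1, 44.4 and 51.4 and rose by 0.47 ± 0.091 (adjusted p 0.0053). In contrast, the 3 regulators that receive the signal did not pass. Stat2 had 77.9, 73.5, 64.0 and 69.5 (-0.18 ± 0.081), Irf1 had 33.7, 33.7, 30.3 and 30.5 (-0.15 ± 0.078) and Irf9 had 23.8, 23.4, 25.0 and 26.7 (0.13 ± 0.084). The feedback inhibitor Socs1 did not pass either, with overlapping groups, CPM of 0.344, 0.607, 0.501 and 0.539 and an interval from -0.82 to 1.08, which spans changes of either sign within these bounds. Irf8 and Nlrc5 passed in all 9 alternative fits, and Irf7 did not pass without WT replicate 1 (0.45, adjusted p 0.075) or WT replicate 2 (0.48, 0.067).

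Both chemokines bind CXCR3 on T and NK cells. Cxcl9, induced mainly by interferon gamma, had CPM of 6.73, 7.29, 14.7 and 16.5 and rose by 1.15 ± 0.12 (adjusted p 0.00024) here and in all 9 alternative fits, while Cxcl10, induced by both types, had 2.41, 2.68, 2.96 and 2.504 with an interval from -0.37 to 0.56. Of 19 other receptor and JAK-STAT genes tested, Tyk2, Stat3, Irf5, Ptpn6 and Ciita rose and Pias1 fell. Irf5 had 5.29, 4.74, 12.4 and 11.7 and rose by 1.27 ± 0.13 (adjusted p 0.00024). Ciita, the MHC class II activator related to Nlrc5, had 0.695, 1.02, 2.11 and 3.61 and rose by 1.74 ± 0.33 (adjusted p 0.0046), and Pias1, an inhibitor of STAT signalling, had 16.2, 16.5, 12.6 and 12.7 (-0.37 ± 0.095). Ciita, Tyk2, Stat3 and Ptpn6 were named after their values were seen.

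**Figure D4:**
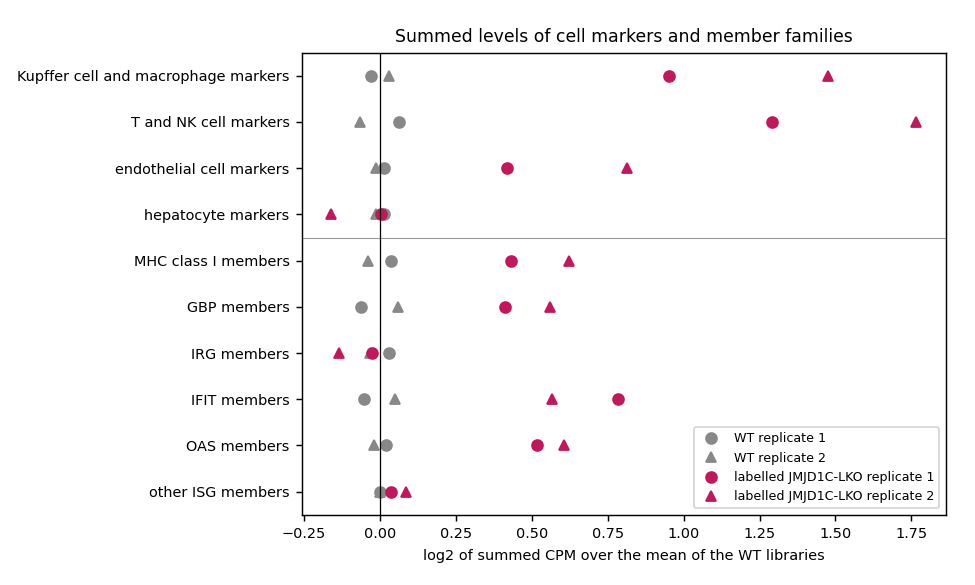
Summed CPM of 4 cell marker lists and 6 gene families in each library, as log2 over the mean of the WT libraries (x axis). In the LKO-labelled libraries the Kupffer cell and macrophage, T and NK cell, endothelial, MHC class I and GBP sums are higher in replicate 2. The OAS and other ISG sums are higher in replicate 2 as well, and the IFIT, IRG and hepatocyte marker sums are lower.

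The log2 ratio of replicate 2 over replicate 1 had a median of 0.17 in MHC class I genes, 0.15 in GBPs, -0.08 in IRGs, -0.16 in IFITs and 0.54 in Kupffer cell and macrophage markers, against 0.003 over all genes tested. Between the WT libraries the same ratio had medians of -0.006, 0.21, -0.08, 0.11 and 0.096 in that order, so the ratios of GBPs and IRGs in the LKO-labelled libraries were no larger than those in WT. The OAS genes had a median of 0.25 between the LKO-labelled libraries and -0.026 between the WT libraries. For the other interferon-stimulated genes these medians were 0.056 and 0.018, so the type I families did not share the direction of the IFITs. In all, 30 of the 45 genes were higher in LKO-labelled replicate 2 than in replicate 1, as were 7162 of the 14151 genes tested, and no difference between families was tested. Replicates of a group have no order, and the part that cell number or RNA per cell had in these ratios was not tested.

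ATAC-seq, in which a transposase inserts adapters into open chromatin, was examined next for the same genes. The deposited lists give only the summits of peaks called in each sample, between 825 and 7632 a sample, so that a missing summit is a missing call and not a measured level. A summit lay within 1000 bp of a RefSeq transcript start for 5 and 2 of the 45 genes in fasted WT liver, for 3 and 3 in refed WT liver and for 2 and 1 in refed JMJD1C-LKO liver. Among genes tested in RNA-seq the shares were 20.2% and 9.28%, 16.7% and 10.5%, and 6.66% and 1.31% in the same order. As a share of 45, the counts of the interferon genes were below these values in 5 of 6 samples and above it in JMJD1C-LKO replicate 2, where the count is 1 gene. In both samples of a group there were 0 (fasted, background 7.36%), 2 (refed, 8.07%) and 1 (JMJD1C-LKO refed, 0.564%).

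The genes with a summit in both samples were Ifngr1 and Oasl1 in WT refed liver and Oasl1 in JMJD1C-LKO refed liver. The summit of Oasl1 lay 753 to 768 bp before its start in 5 of 6 samples, missing in WT fasted replicate 1, and it is within 1000 bp of the start of Gm13822 as well. By score it ranked 1809 of 7632 in WT fasted replicate 2, 436 of 5027 and 1005 of 3119 in refed WT liver, and 220 of 1450 and 345 of 825 in refed JMJD1C-LKO liver. The summit of Ifngr1 lay 69 to 360 bp before its start in 4 of 6 samples, that is in WT fasted replicate 1, both WT refed livers and JMJD1C-LKO replicate 1. Irf9, Gbp2 and Tap1 had a summit only in WT fasted replicate 1, H2-D1 only in WT fasted replicate 2, Gbp7 only in WT refed replicate 2, and Ifih1 in the replicate 1 liver of each WT group. The other 37 genes, Tgtp1, Igtp, Irgm2, H2-K1, B2m and all 3 Ifit genes among them, had none in any sample.

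H3K9me2, a histone mark known for its link with silent chromatin and a substrate of JMJD1C, was mapped in WT liver only, so no comparison of genotypes could be made. A summit lay within 1000 bp of a start for 14 and 29 of the 45 genes in fasted WT liver and for 0 and 22 in refed WT liver, where the shares among genes tested in RNA-seq were 51.6%, 74.1%, 0.123% and 61.6%. WT refed replicate 1 stood apart, with 1297 summits against 7690 to 13456 in the other samples, and every statement on refed liver therefore rests on a single liver. In both fasted livers 14 genes had a summit (background 51.3%), and in both refed livers 0 (0.0723%).

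The 14 genes were all 6 MHC class I members, the IRGs Irgm1 and Irgm2, the regulators Stat2, Irf1 and Irf9, the receptor gene Ifngr2, and Bst2 and Parp14. By class this was 8 of 18 interferon-gamma-type, 2 of 17 type I and 4 of 10 shared genes. None of these 14 was missing from the list of WT refed replicate 2. B2m, H2-D1 and H2-K1 held the strongest summits of the 45 genes in both fasted livers, with ranks by score of 430, 308 and 724 of 7690 in replicate 1 and 35, 72 and 146 of 13456 in replicate 2, and they ranked 136, 596 and 914 of 9929 in WT refed replicate 2. The B2m summit lay at chr2:122147938 and chr2:122147974 in the fasted livers, 251 and 287 bp after the start and inside the gene. Tap1 shares its summits with Psmb9, and Tapbp with Gm19412.

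The H3K9me2 summits lay mainly just after the start. They fell 100 to 600 bp downstream in 12 of 14 genes in WT fasted replicate 1, 26 of 29 in WT fasted replicate 2 and 19 of 22 in WT refed replicate 2, with median positions of 272, 252 and 246 bp. The genes with a summit in both fasted livers had a higher median level than the others, 28.2 against 4.502 TPM in the WT libraries, and among all genes tested the medians were 15.3 with and 1.64 without such a summit. No summit lay at the start of 16 genes in any sample, and these were Nlrc5, Gbp2, Gbp3, Gbp9, Iigp1, Tgtp1, both chemokines, the 3 Ifit genes, Oas1a, Oasl2, Isg15, Rsad2 and Ifi44. Of the 14 genes with a summit in both fasted livers 7 rose in the LKO-labelled libraries and 0 fell (median log2 fold change 0.22), and of the other 31 genes 18 rose and 2 fell (median 0.47). Whether these groups differ was not tested.

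**Figure D5:**
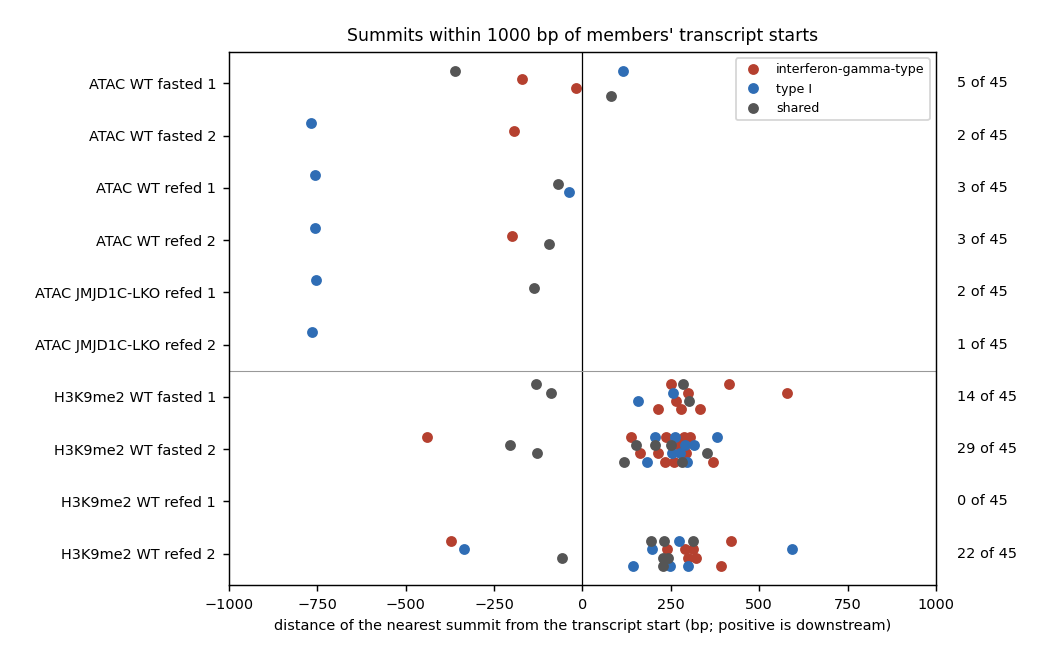
Distance of the nearest summit from the transcript start (x axis, bp) for each of the 45 genes with a summit within 1000 bp, by sample, coloured by class, with the number of genes at the right. ATAC-seq shows between 1 and 5 genes a sample, and H3K9me2 summits gather about 250 bp after the start in all samples but WT refed replicate 1, which has none.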

How the data were processed

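RNA-seq of refed liver (2 WT and 2 JMJD1C-LKO libraries), ATAC-seq (6 livers) and H3K9me2 ChIP-seq (4 livers) were used. The RNA-seq table deposited by the authors holds unscaled estimated counts for each RefSeq transcript. A further table holds their own p-values, FDR and fold changes and was not used. For the peak assays the authors deposited MACS2 summits called in each sample on mm10, scored as the −log10 of the q-value. The submitters' processing notes name HISAT2, Partek, BWA and MACS2 2.1.1. Depth of the peak samples is unknown from the lists.

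Estimated counts were summed per gene and rounded. Genes passing filterByExpr (14151) were tested with edgeR 4.0.16 in R 4.3.3 (quasi-likelihood F test, TMM, no block, Benjamini-Hochberg over all genes tested, threshold 0.05), checked on simulated data. TPM was computed from transcript lengths. Summits were assigned within 1000 bp of RefSeq GRCm38.p6 starts. DESeq2 1.42.0, RLE factors, no filter, a replicate block, the most abundant transcript per gene and leaving out each library were tried, and for summits windows of 500 and 2500 bp, a minimum score of 5 and single samples. The RNA libraries came from pooled RNA, and p-values measure the spread between these pools. All 45 genes are named. Of the other pathway lists, up to 5 genes a direction with the smallest p are named. Psme1, the interferon genes and the copies Tgtp2, Gbp10 and Ifit3b are named besides, and other exceptions are marked. Members, classes and lists were chosen with earlier results of these data known.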

Additional observations from a re-analysis of the deposited data

How the results depend on the processing

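Of the 27 genes that passed, 10 did so in all 9 alternative fits, and none changed direction. Over all genes, with WT and LKO-labelled libraries left out in turn, 660 to 2590 rose and 408 to 2590 fell. Over the 45 genes 10 to 25 rose and 0 to 2 fell, for the interferon-gamma type 5 to 13 and 0 to 1, for type I 3 to 8 and 0 to 1, for the shared genes 2 to 4 rose, and for the other interferon lists together 19 to 49 rose and 1 to 9 fell. A lone library in an arm was assumed to vary like the other group. With the most abundant transcript per gene, which holds fewer reads where a gene has several transcripts, 1263 of all genes rose and 1063 fell. In this fit 17 of the 45 rose and 1 fell, 5 type I genes rose and 0 fell, 2 shared genes rose and 3 of the other lists fell. Ifngr1, Tap2, Ifit1, Oasl2 and Ifi35 lost their calls in it though they have a single transcript and the same reads, and the cause was not tested. DESeq2 called 18 of the 45 higher and 1 lower, with 0 type I genes lower, and the cause was not tested. Same-numbered libraries did not deviate together (correlation -0.00461), so their numbers were not taken as pairs. With the replicate block 25 rose and 2 fell. It added Oas1a (0.55, adjusted p 0.041) and ended the call of Tapbp (adjusted p 0.054), and it changed no other call among the 45.

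Directions reversed only for genes that did not pass, and the cause was not tested. Irgm1 was -0.000418 in DESeq2 and -0.0038 without the count filter. With libraries left out in turn, log2 fold changes ran from -0.0405 to 0.039 for Irgm1, -0.13 to 0.0199 for Irgm2, -0.0319 to 0.214 for Cxcl10, -0.189 to 0.255 for Isg15, -0.225 to 0.59 for Socs1, -0.0108 to 0.0987 for Ifi27, -0.0351 to 0.289 for Ifih1 and -0.116 to 0.0163 for Ddx58, and the median of the red blood cell markers from -0.208 to 0.73. Jmjd1c was 0.095 by its most abundant transcript. Its other transcript, NM_001242396, had estimated counts of 280.4 and 479.1 in WT and 170.8 and 267.7 in the LKO-labelled libraries. The change of that transcript alone was not tested.

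For ATAC-seq summits in both samples, a 500 bp window left 1 gene in refed WT liver and 0 in refed JMJD1C-LKO liver, since the Oasl1 summit lies farther out. Single samples gave 2 to 5 genes in fasted WT, 3 in refed WT and 1 to 2 in refed JMJD1C-LKO liver, and for H3K9me2 14 to 29 in fasted and 0 to 22 in refed liver. Ifng had too few counts to be tested.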
